A study of Mus musculus with 2 samples.

Results

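The CD8 T cells of primary EO771-HEVM3 tumours were 318 of the 12427 cells deposited for the tumour library, a share of 2.56% with an exact 95% binomial interval of 2.29% to 2.85%, out of 24044 cells in both libraries of the series. They were selected on raw counts of unique molecular identifiers (UMIs, each standing for a captured RNA molecule). A cell was kept with over 200 genes and at most 5% of its UMIs in mitochondrial genes. It then needed at least 2 UMIs of Cd3d, Cd3e and Cd3g together, at least 1 of Cd8a and Cd8b1 together, 0 of Foxp3, under 20 of the keratins Krt8 and Krt18, and at most 2 of the complement genes C1qa, C1qb and C1qc.

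CD8 T cells recognise peptides on class I molecules and can kill the presenting cell by releasing perforin and granzymes or through Fas ligand. Naive CD8 T cells circulate through lymph nodes on homing molecules such as Ccr7, and after antigen encounter they lose these, divide and gain effector genes. In tumours they often carry inhibitory receptors such as PD-1 (Pdcd1), whose genes are switched on by activation and stay on under lasting stimulation.

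The series holds 1 library of primary tumours and 1 of the paired lymph nodes, each pooled from 6 C57BL/6J mice, so the spread between mice cannot be read from it. EO771 is a mouse mammary carcinoma line, and EO771-HEVM3 is the label of a derivative that the study enriched in mice over repeated rounds for cells spreading through the blood vessels of lymph nodes. All mice carried this tumour, and no library of tumour-free mice was used. Tumours were digested with collagenases I and III and hyaluronidase for longer than the lymph nodes, which were digested with collagenase P, dispase II and DNase, so site, digestion and library cannot be told apart, and every difference below is one between libraries. The comparison groups were 1531 CD8 T cells of the lymph node library and 111 tumour T cells with 0 UMIs of Cd8a and Cd8b1, both under the same limits otherwise. With 1 library a group no test was possible, and intervals (95%, exact) cover counting error only.

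The members held 922460 UMIs, with a median of 2095.5 UMIs and 1073 genes a cell and a range of 565 to 20995 UMIs. Lymph node CD8 T cells had a median of 4082 UMIs, with up to 133115 in a cell, and the CD8-negative tumour T cells 1593. A doublet caller marked 11 members (3.46%) and worked less well on the lymph node library, where its own threshold marked 0 cells. A limit at the 94th percentile of its score there marked 198 lymph node CD8 T cells (12.9%), against 5.89% of that library's cells, and the counts of higher and lower genes between the groups moved by under 1.5 times without the marked cells. Levels are given as CPM, that is UMIs scaled to 1000000 UMIs of a group, and 0 UMIs among the members allows up to 3.25 CPM. Since a cell with more UMIs shows more genes, shares of cells with a UMI were also taken after thinning each cell to 1000 UMIs, which left out 22 members, 22 CD8-negative T cells and 0 lymph node CD8 T cells. Of the barcodes, 47 occurred in both libraries, and 2 of these were in members.

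The limits that chose the cells were met with little margin by some of them. The Cd3 sum had a median of 5 (range 2 to 31), 33 members had exactly 2, and 34 cells outside had 1 with the other limits met. The CD8 sum had a median of 3 (range 1 to 18), and 65 members had exactly 1. Cd8a was seen in 290 members, Cd8b1 in 229 and both in 201. Krt8 and Krt18 were at 0 in 220 members and summed to 10 to 19 in 5, while 12 cells outside had 20 to 29. The mitochondrial share was over 4% in 124 members and 5% to 6% in 70 cells just outside.

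The label was checked on genes that the limits did not use. A constant gene of the T cell receptor alpha or beta chain (Trac, Trbc1 or Trbc2) had a UMI in 297 of 318 members, and Cd4, which marks helper T cells, in 4. The chemokine receptor Cxcr6 was seen in 264 members and Nkg7, a protein of cytotoxic granules, in 279. Both came with the label as its markers, so they do not check it. Cxcr6 was also seen in 55.0% of the CD8-negative tumour T cells. Ncr1, which marks natural killer cells, was at 3.25 CPM, and Trdc, the constant gene of the delta chain, at 0 UMIs. UMIs of genes of other lineages were present as well. None of 8 macrophage markers was at 0, and they summed to 377 CPM, against 204 in lymph node CD8 T cells, with over 2 Lyz2 UMIs in 8 members. Of 11 cancer cell markers only Krt5 was at 0, and they summed to 163 CPM, against 1589 in the tumour's keratin-high cells. Of 6 B cell markers 3 were at 0, Cd79a and Ms4a1 among them, and the 6 summed to 31.4 CPM, against 2837 in lymph node CD8 T cells. Erythroid markers summed to 2198 CPM in members and 190.0 in lymph node CD8 T cells, with over 2 haemoglobin UMIs in 5 members. None of 6 dendritic cell markers was at 0, and they summed to 332 CPM against 2007. Of 7 fibroblast and endothelial markers Col3a1, Cdh5 and Kdr were at 0, and they summed to 155 CPM against 74.7. The part of these UMIs in the differences below was not tested, but the counts of higher and lower genes against the lymph node moved by under 1.5 times without the cells that held over 5 of them.

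Housekeeping and cytoskeletal RNAs were the most abundant in the members, among genes other than mitochondrial ones and those named Rpl or Rps. Tmsb4x, which binds actin monomers, led at 18416 CPM (95% interval 18140.1 to 18695), followed by Actb at 8019.9, Tpt1 at 6452, Fau, which encodes a ribosomal protein fused to a ubiquitin-like one, at 5607, the ferritin heavy chain Fth1 at 5283 and Eef1a1 at 4963. Fth1 rested on few cells, since 10 held 67.9% of its UMIs, and without the richest of them it was at 4390 CPM. The tumour cells rich in C1q UMIs held 26412 CPM of it. The chemokine Ccl5 came next at 3311 CPM (95% interval 3194 to 3430.3), above Actg1 at 3292, the class I heavy chain H2-K1 at 2656 and the calcium-binding S100a6 at 2610.4. Ccl5 was the only chemokine among these 10 genes.

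Against lymph node CD8 T cells, the members held far more RNA of cytotoxic, chemokine, inhibitory receptor and NK receptor genes and far less of the genes of naive, recirculating T cells. A gene was counted as measured when its CPM in the 2 groups summed to at least 40, and as higher or lower when the CPM ratio was at least 2-fold. By this rule 5644 genes were measured, of which 1329 (23.5%) were higher and 329 (5.83%) lower in the tumour cells. A gene that passed only through the group where it was high had to differ. The median of all measured genes was 0.39 on the log2 scale rather than 0, beside a share of ribosomal protein genes of 26.5% of UMIs in members and 41.4% in lymph node CD8 T cells. Higher genes made up 80.2% of the calls, 61.7% when ribosomal and mitochondrial genes were left out of the totals, and 53.8% when ratios were centred on the median gene. Log2 ratios below are uncentred and are to be read against 0.39.

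**Figure D1:**
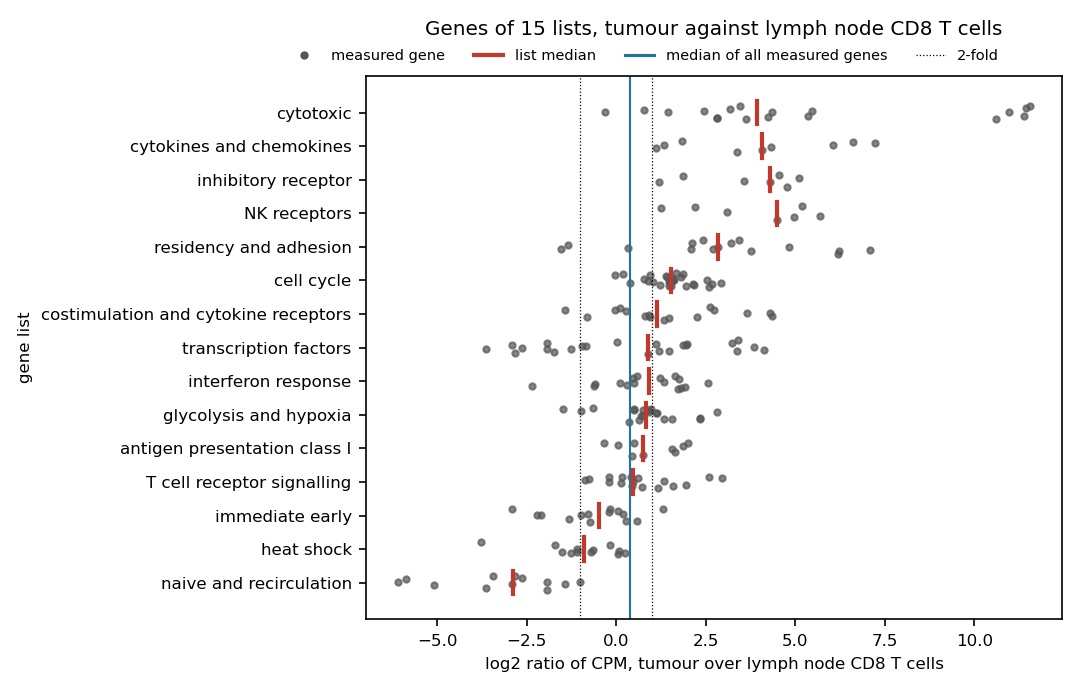
Log2 ratio of CPM of each measured gene in 15 gene lists (points, scattered vertically for visibility), tumour over lymph node CD8 T cells, 1 library each. Red bars are list medians, the blue line is the median of all 5644 measured genes at 0.39, and dotted lines mark 2-fold. The cytotoxic list has its median at 3.92 and the naive and recirculation list at -2.87.

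Cytotoxic granule genes were higher in the tumour cells almost throughout. Of 18 measured genes of the list, 16 were at least 2-fold higher and 0 lower, with a median log2 ratio of 3.92. Gzma, Gzmb, Gzmk, Gzmc to Gzmg, Fasl and Tnfsf10 were measured only through the members, so the rule fixed their direction. The lists here and below were drawn up with earlier results of these data known, so their direction is a description. Perforin (Prf1), which opens the target cell's membrane, was at 386 CPM (95% interval 347 to 428) in members and 18.9 (15.9 to 22.2) in lymph node CD8 T cells, a log2 ratio of 4.35 (95% interval 4.07 to 4.65). Granzyme B (Gzmb), a protease that starts apoptosis, was at 534 CPM (488 to 584) against 12.9 (10.5 to 15.8), a log2 ratio of 5.36 (5.05 to 5.70). Neither pair of intervals overlapped. After thinning, 27.7% of members and 0.849% of lymph node CD8 T cells had a Gzmb UMI, and 0.0146% of keratin-high tumour cells, which should lack it. Before thinning these shares were 42.1% of members and 2.48% of lymph node CD8 T cells, and the keratin-high cells had a median of 18363 UMIs.

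Nkg7 was at 1235 CPM in members and 228 in lymph node CD8 T cells (5.42-fold), so it was already present at a sizeable level in the node. Gzma was at 350.2 against 7.81 CPM and Gzmk, a granzyme often seen in earlier effector and memory cells, at 95.4 against 10.6. Fas ligand (Fasl) was at 131 against 10.6 CPM and the death ligand TRAIL (Tnfsf10) at 88.9 against 4.71. Serpinb9, which protects cells from granzyme B, stood at 314 against 28.8 CPM, so the inhibitor was higher along with the protease. The 2 measured genes under 2-fold were the granule proteoglycan Srgn, with a log2 ratio of -0.32, and the cathepsin Ctsw, with 0.76. Gzmm was too low to be measured (1.08 CPM in members, 13.2 in lymph node CD8 T cells).

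The granzymes Gzmc to Gzmg were nearly confined to the tumour cells in this comparison. These 5 genes lie beside Gzmb in a cluster on chromosome 14 (GRCm38), and all are read from the minus strand. Lymph node CD8 T cells held 0 UMIs of Gzmc, Gzmd, Gzme and Gzmg and 1 of Gzmf, while members held 173, 166, 96, 125 and 564. Taken against a floor of 3 counts over the lymph node group, Gzmc was at least 464-fold higher in members, Gzmd at least 445-fold, Gzmg at least 335-fold and Gzme at least 258-fold. The size of these bounds rested partly on single cells, since 1 cell held 54.3% of the Gzmc UMIs and 1 cell 48.8% of those of Gzmg. Without the cell richest in each, Gzmc was at 87.6 rather than 188 CPM and Gzmg at 70.1 rather than 136. Gzmf, with its single lymph node UMI, had a log2 ratio of 11.56 with a wide interval of 9.66 to 17.45. Because the genes are near copies of one another, the ends of their coding sequences are shown, from GENCODE vM21 on GRCm38, with capitals where a base differs from Gzmf at the same place counted back from the stop codon. Gzme and Gzmf are identical over these 30 bases, Gzmd and Gzmg differ from Gzmf at 2 and Gzmc at 11.
Gzmc, chr14:56231514-56231543 minus strand: tggataaAGaAAaCGatgaaAcACAGctaa
Gzmd, chr14:56129675-56129704 minus strand: tggataagcTggaacatgaagTtgctctaa
Gzme, chr14:56117726-56117755 minus strand: tggataagcaggaacatgaagctgctctaa
Gzmf, chr14:56205375-56205404 minus strand: tggataagcaggaacatgaagctgctctaa
Gzmg, chr14:56156689-56156718 minus strand: tggataagcaCAaacatgaagctgctctaa

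Over the last 500 bases of their transcripts, where 3′ libraries read, 1.70% of 90-base windows of Gzmd and Gzme were shared with each other and 0% of those of Gzmc, Gzmf and Gzmg with any other granzyme. A read of that length could thus be told apart in nearly all places, but the read length of these libraries was not given in the sources used here, so counts of the single genes are less certain than their sum.

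Cytokine and chemokine genes were higher in the tumour cells in every measured case, but the rule fixed this for part of them. Tnf, Ccl3 and Csf1, low in lymph node CD8 T cells, were measured only through the members. All 9 measured genes of a list of 16 were at least 2-fold higher, with a median log2 ratio of 4.08. After centring 7 of the 9 were. Ccl3 and Ccl4, which attract T cells and macrophages, were at 455 CPM (95% interval 413 to 501) and 1404 (1328 to 1482) in members, and at 4.58 (3.17 to 6.40) and 20.9 (17.7 to 24.4) in lymph node CD8 T cells. Tumour cells with over 10 UMIs of C1qa, C1qb and C1qc held more Ccl4 than the members (1964 CPM), while the thinned share with a Ccl4 UMI was 38.8% in members, 1.05% in lymph node CD8 T cells and 1.49% in keratin-high cells. Ccl5, a related chemokine, was at 3311 against 921 CPM, a smaller log2 ratio of 1.85 (1.78 to 1.91).

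Interferon gamma (Ifng), the main macrophage-activating cytokine of CD8 T cells, was at 262 CPM (230.3 to 298) in members and 13.1 (10.6 to 15.9) in lymph node CD8 T cells, and 98 members had a UMI. Tnf was low at 44.4 against 4.31 CPM, and the growth factor Csf1 was at 178 against 10.5. Il2 was seen at 6.50 CPM and Il21 at 0 UMIs, below what could be measured. At least 2 genes of the list rested on few cells, since 1 cell held 59.8% of the Ccl9 UMIs and 1 cell 40.7% of the Xcl1 UMIs. Xcl1 had a log2 ratio of 1.12, which turned to -0.26 among cells of 1000 to 4000 UMIs.

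**Figure D2:**
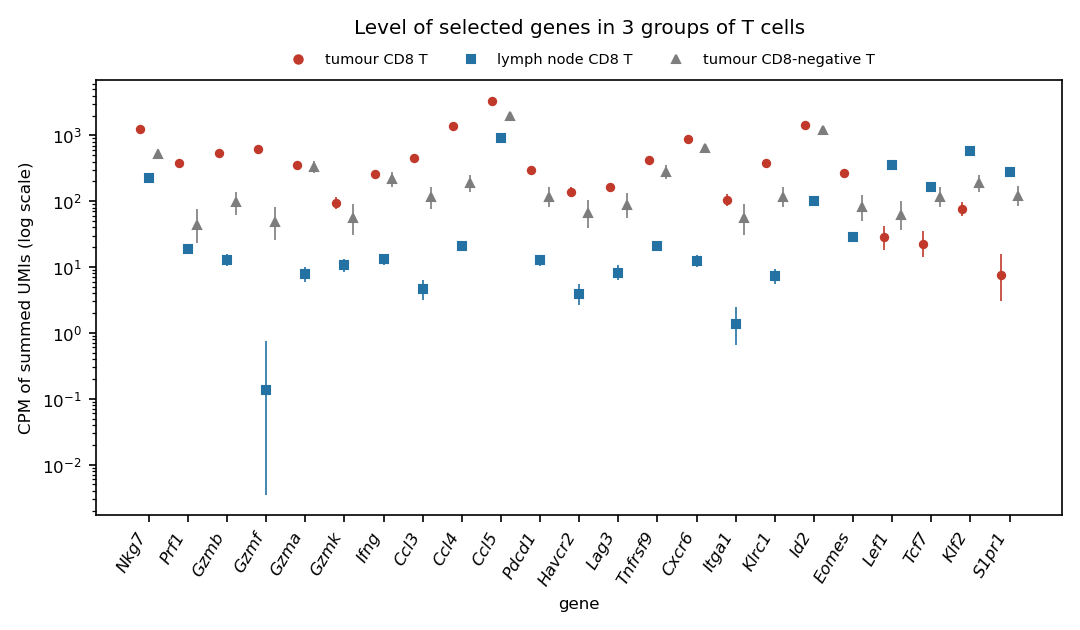
CPM of 23 genes (log scale) in tumour CD8 T cells (red circles, 318 cells), lymph node CD8 T cells (blue squares, 1531 cells) and tumour CD8-negative T cells (grey triangles, 111 cells), 1 library each, with exact Poisson 95% intervals. Effector and inhibitory receptor genes stand higher in the tumour CD8 T cells than in those of the node, and Lef1, Tcf7, Klf2 and S1pr1 lower, with S1pr1 at 7.59 against 278 CPM.

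Inhibitory receptors were higher in the tumour cells for all 7 measured genes of the list, with a median log2 ratio of 4.30, or 3.56 over the 13 genes in the file. After centring 6 of the 7 were at least 2-fold higher. Pdcd1, Havcr2, Lag3 and Entpd1 were measured only through the members, so the rule fixed their direction. PD-1 (Pdcd1) was at 299 CPM (95% interval 265 to 337) in members and 12.7 (10.2 to 15.5) in lymph node CD8 T cells. TIM-3 (Havcr2) was at 137 (114 to 163) against 3.91 (2.62 to 5.61), and LAG-3 (Lag3), which binds class II molecules, at 163 (138 to 191) against 8.22 (6.28 to 10.6). None of these intervals overlapped between the groups. The ectoenzyme CD39 (Entpd1) was at 81.3 against 2.96 CPM, a level close to the 85.7 of the tumour cells rich in C1q UMIs. CTLA-4 (Ctla4), which competes with CD28 for its ligands, differed less, at 229 against 63.3 CPM. Tigit and Btla were hardly seen in members, with 3 and 2 UMIs.

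Many members held UMIs of several of these receptors. Singly, Pdcd1 was seen in 164 members, Ctla4 in 110, Lag3 in 97, Havcr2 in 79 and Entpd1 in 62. Whether they shared a cell more often than these shares alone would give was not tested. Of Pdcd1, Lag3, Havcr2, Entpd1 and Ctla4, 63 members had none, 91 had 1, 97 had 2, 43 had 3, 22 had 4 and 2 had all 5. In the lymph node 1225 of 1531 CD8 T cells (80.0%) had none although their median depth was higher. Median depth was 1391 UMIs in members with none, 1982 with 1, 2346 with 2, 2321 with 3 and 4531 with 4, and the part of depth in the number seen was not tested. Pdcd1 was seen with Gzmb in 77 members and Gzmb without Pdcd1 in 57, and the precursor factor Tcf7 was seen with Pdcd1 in 3.

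Among costimulatory and cytokine receptors 8 of 16 measured genes were higher and 1 lower, with a median log2 ratio of 1.15. After centring 7 were higher and 2 lower, with a median of 0.76. Over all measured genes 23.5% were higher and 5.83% lower before centring. The costimulator 4-1BB (Tnfrsf9), induced on antigen contact, was at 429 CPM (388 to 474) against 20.9 (17.7 to 24.4). The IL-2 receptor beta chain (Il2rb) was at 1328 against 215 CPM and the alpha chain (Il2ra) at 77 against 3.91, while the shared gamma chain Il2rg did not reach 2-fold, at 165 against 171. The survival receptor Il7r was the lower gene, at 127 against 344 CPM. The receptor for IL-18 was higher in both chains, with log2 ratios of 2.72 for Il18r1 and 3.66 for Il18rap. Cd28 and Cd27 stayed under 2-fold, with log2 ratios of 0.96 and -0.81.

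Receptors first known from natural killer cells formed a further group, with 7 of 7 measured genes higher and a median log2 ratio of 4.49, and 6 of 7 after centring. Klrc1, Klrc2, Klrk1 and Klre1 were measured only through the members, so the rule fixed their direction. Klrd1 encodes CD94, which pairs with the inhibitory NKG2A (Klrc1) or the activating NKG2C (Klrc2) to bind the class I molecule Qa-1. Klrc1 was at 379 CPM (95% interval 341 to 421) in members and 7.27 (5.46 to 9.49) in lymph node CD8 T cells, and Klrc2 at 278 (245 to 314) against 7.54 (5.70 to 9.79). Klrd1 was at 652 against 141 CPM. Members with Klrd1 and at least 1 of its partners numbered 164, or 51.6%. Klrc1 shares 32.6% of its 90-base windows near the 3′ end with Klrc2, so the split of counts between inhibitory and activating partner is uncertain. The NKG2D gene Klrk1 was at 170.2 against 7.54 CPM and Klre1 at 147 against 4.71. Tyrobp, a signalling adaptor also of myeloid cells, was seen in 15 members, and its log2 ratio of 1.25 turned to -0.31 without cells that held a UMI of Cd4, Trdc, Ncr1, Cd79a or Ms4a1 or over 2 of Lyz2, which left 304 members, and rose to 2.97 without cells that held over 5 UMIs of another lineage's marker list, which left 297.

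Genes of adhesion, chemokine sensing and tissue residency were mostly higher. Of 15 measured genes 12 were higher and 2 lower, with a median log2 ratio of 2.86. Cxcr6, the receptor of Cxcl16, was at 894 CPM (834 to 958) against 12.3 (9.87 to 15), and the collagen-binding integrin CD49a (Itga1) at 105 (85.3 to 128) against 1.35 (0.646 to 2.48). The fractalkine receptor Cx3cr1 was at 81.3 CPM in members and rested on 4 UMIs in lymph node CD8 T cells, a log2 ratio of 7.08 (5.82 to 9.15). CD8-negative tumour T cells held 103 CPM of it, a log2 ratio of -0.36 (-0.98 to 0.34) for members over these cells. Members of this list that are commonly used for residency did not all point one way. CD103 (Itgae), which binds epithelial E-cadherin, was below the measure, at 4.34 CPM in members and 25.6 in lymph node CD8 T cells. CD69 (Cd69), which holds cells in tissue by removing S1pr1 from the surface, was lower at 74.8 against 219.7 CPM, and so was the gut-homing integrin Itgb7 at 39 against 101.

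The genes of naive and recirculating T cells were the group furthest in the other direction among the 15 lists. All 12 measured genes were at least 2-fold lower, with a median log2 ratio of -2.87. S1pr1, the receptor by which cells leave lymph nodes, was at 7.59 CPM (95% interval 3.05 to 15.6) against 278 (266 to 290.2) in lymph node CD8 T cells, and its activator Klf2 at 75.9 against 569.9. The stemness factors Tcf7 and Lef1 were at 22.8 and 28.2 CPM in members and at 167 and 357 in lymph node CD8 T cells. A Tcf7 UMI was seen in 13 members and a Lef1 UMI in 20. Ccr7, which guides cells into the T zone, was at 59.6 CPM against 651, and 1 member held 58.2% of its 55 UMIs. Any of Tcf7, Lef1 and Ccr7 was seen in 38 members and at least 2 of them in 5.

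Transcription factors split between the directions, with 11 higher and 8 lower of 23 measured and a median log2 ratio of 0.88. After centring on the median gene the split was 9 higher and 10 lower. Id2, which favours effector cells, was at 1434 CPM (1358 to 1514) against 100.1 (93 to 108), while its relative Id3 was at 15.2 against 52.4. The paired T-box factors of effector CD8 T cells were both higher, with Eomes at 266 against 28.3 CPM and T-bet (Tbx21) at 68.3 against 3.91. Zeb2 was at 147 against 14 CPM, Bhlhe40 at 502 against 48.1 and Runx3 at 418 against 106. Tox, a factor linked with lasting stimulation, was at 136 CPM (113 to 161) against 37.4 (33.2 to 42.1), and 93 members had a UMI. Satb1 and Bach2 were lower together with Tcf7, Lef1 and Klf2, with log2 ratios of -1.93 and -1.94. Zfp683 (Hobit), a residency factor, was seen at 1.08 CPM and could not be measured.

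By a fixed ranking over all genes, 12 genes with the largest and 12 with the smallest ratios were taken. They needed a UMI in at least 10% of cells of the higher group and no cell with over 20% of the UMIs. The higher ones were Gldc, Cx3cr1, Ccl3, Itga1, Cxcr6, Styk1, Klrc1, Trgc2, Gzmb, Klrc2, 2900026A02Rik and Havcr2. Of those not yet described, Gldc, the glycine-cleaving decarboxylase of mitochondria, was at 51 CPM against 0.269, where the lymph node group held 2 UMIs, a log2 ratio of 7.26 (5.63 to 10.65). The receptor-like kinase Styk1 was at 52 against 0.673 CPM, and 2900026A02Rik, a gene without an assigned function here, at 136 against 3.77. In CD8-negative tumour T cells Gldc was at 29.4 CPM, Styk1 at 18.4 and 2900026A02Rik at 80.9. The lower ones named here were Dapl1, Pik3ip1, S1pr1, Rflnb, Nsg2, Cmah, Tdrp, Pak1, Atp1b1, Patj and Lef1. Each of them but Lef1 had at most 7 UMIs in all members. Dapl1, a marker of naive and stem-like CD8 T cells, had 1 UMI against 711 (log2 ratio -5.88, interval -11.77 to -3.98). Pik3ip1, a brake on phosphoinositide 3-kinase, had 1 against 451 (log2 ratio -5.22, interval -11.12 to -3.32).

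Dividing cells were more frequent among the tumour cells. Of 29 measured cell cycle genes 23 were higher and 0 lower than in lymph node CD8 T cells, with a median log2 ratio of 1.53. The proliferation marker Mki67 was at 216 CPM (95% interval 187 to 248) against 37.3 (33 to 42), and topoisomerase Top2a at 401 (361 to 444) against 66.8 (61 to 72.9). The summed share of these genes was uneven over cells, with a median of 0.152% of UMIs, a highest value of 3.56% and 31 members at 0. A limit of 0.8%, set after the values were seen, was reached by 53 members (16.7%, 95% interval 12.7% to 21.2%), by 24 lymph node CD8 T cells (1.57%, 1.01% to 2.32%) and by 13 CD8-negative tumour T cells (11.7%, 6.39% to 19.2%). Of the members, 15 lay between 0.6% and 1%. The intervals of members and lymph node CD8 T cells were apart, while those of members and CD8-negative T cells overlapped.

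**Figure D3:**
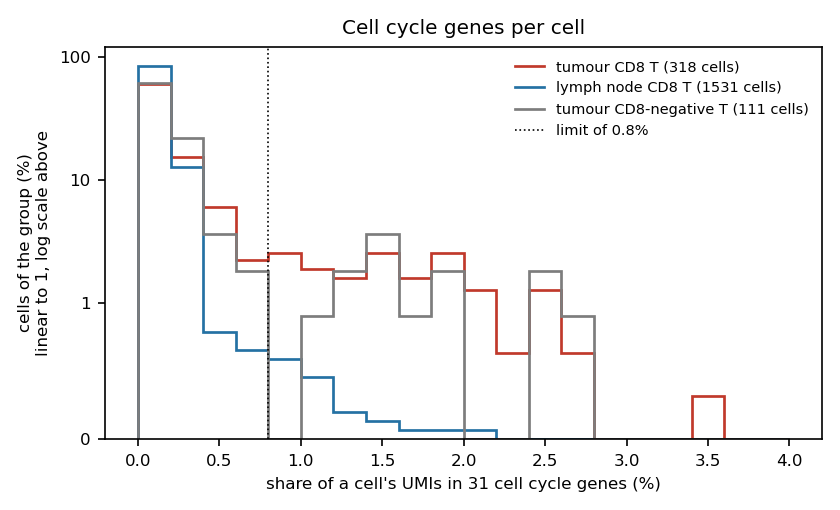
Share of each cell's UMIs in 31 cell cycle genes (horizontal axis, %) against the share of cells of the group in each bin (vertical axis, %, linear to 1 and logarithmic above), for 318 tumour CD8 T cells, 1531 lymph node CD8 T cells and 111 tumour CD8-negative T cells. The dotted line is the limit of 0.8%, above which lie 53, 24 and 13 cells.

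Cells above that limit had a median of 3858 UMIs and the other members 1865, so depth differed with the split. Among genes that the limit did not use, the perforin level was 224 CPM in dividing cells and 451 in the others, a log2 ratio of -1.0 (95% interval -1.44 to -0.60). Ccl5, Cxcr6 and Itga1 were lower too, with log2 ratios of -1.09 (-1.24 to -0.95), -0.86 (-1.13 to -0.60) and -1.21 (-2.18 to -0.42). Id2 and Gzmb were slightly higher, at 0.33 (0.16 to 0.50) and 0.42 (0.14 to 0.69). The intervals for Pdcd1, Havcr2, Lag3, Tox and Klrc1 held 0. The thinned share with a Prf1 UMI was 15.6% in dividing cells and 30.1% in the others, and with a Cxcr6 UMI 47.9% and 64.8%. UMIs of other lineages also differed with the split. Macrophage markers summed to 125 CPM in dividing cells and 478 in the others, fibroblast and endothelial markers to 45.5 and 199, and erythroid markers to 11.4 and 3074, and their part in these ratios was not tested.

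The medians of the remaining 6 lists lay between -0.90 and 0.90. Their counts are to be read beside the 23.5% higher and 5.83% lower over all measured genes, or 765 and 656 of 5644 after centring. No list was tested against these shares, T cell receptor signalling and glycolysis and hypoxia included. For T cell receptor signalling 6 of 17 measured genes were higher and 0 lower (median 0.47), led by the adaptor Lcp2 at 2.97 and by Thy1 at 2.58, and after centring 4 were higher and 2 lower. For the interferon response 8 of 16 were higher and 1 lower (median 0.90). Its higher members Ly6a and Gbp4 had log2 ratios of 2.56 and 1.92, and the lower one, Rsad2, had -2.36. After centring 6 were higher and 2 lower. For class I presentation 4 of 9 were higher, namely the peptide transporter subunits Tap1 and Tap2, the chaperone Tapbp and the proteasome subunit Psmb9, while H2-K1 and B2m stayed under 2-fold at 0.49 and 0.75.

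For glycolysis and the hypoxia response 7 of 20 were higher and 1 lower (median 0.82), and after centring 4 were higher and 3 lower. The glucose transporter Slc2a3 and the lactate exporter Slc16a3 had log2 ratios of 2.35 and 2.81, and the enzymes Ldha and Pkm stayed under 2-fold at 0.49 and 0.51. Of 14 immediate early genes 1 was higher and 4 were lower (median -0.47), among them Fos at 33.6 against 255 CPM and Jun at 51 against 239, and the higher one was Egr1 at 1.31. After centring 0 were higher and 7 lower. Of 12 heat shock genes 6 were lower and 0 higher (median -0.90), with Dnaja1 at -1.72 and Hsp90ab1 at -1.09. Immediate early and heat shock genes respond to tissue digestion, which differed between the libraries, and its part in these values cannot be told apart.

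The CD8-negative tumour T cells came from the same library and digestion, so here neither differed. The question was which genes went with Cd8a and Cd8b1 UMIs within the tumour. Of 6175 measured genes, 186 (3.01%) were at least 2-fold higher and 441 (7.14%) lower in the members, with a median log2 ratio of -0.11, and the 95% interval excluded 0 for 133 and 304 of them. These 111 cells are a mixture, since T cells whose Cd8a and Cd8b1 RNA was not caught fall among them (65 members had a single such UMI) and Cd4 had a UMI in 25.5% of them after thinning.

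Cytotoxic and NK receptor genes set the members apart here as well. Of 18 measured cytotoxic genes 9 were higher and 1 lower, and of 7 NK receptor genes 4 were higher and 0 lower. Over all measured genes 3.01% were higher and 7.14% lower. Prf1 was at 386 CPM in members and 44.1 in CD8-negative T cells, a log2 ratio of 3.07 (95% interval 2.31 to 4.10), and Gzmb at 534 against 95.6, a log2 ratio of 2.46 (1.91 to 3.11). Klrc2 had a log2 ratio of 2.49 (1.74 to 3.47), Klre1 of 2.08 (1.19 to 3.32) and Eomes of 1.69 (1.08 to 2.42). Ccl4 and Ccl3 differed by 2.89 (2.50 to 3.34) and 1.98 (1.47 to 2.57). The lower gene of the cytotoxic list was Srgn at -1.04.

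Several other genes stayed under 2-fold between the T cell groups of the tumour. Gzma was at 350.2 against 335 CPM with a log2 ratio of 0.06 (-0.27 to 0.42), Fasl had 0.14 (-0.42 to 0.77), Ifng 0.27 (-0.14 to 0.71) and Ctla4 -0.05 (-0.45 to 0.39). Cxcr6 and Id2 were slightly higher in members, at 0.48 (0.25 to 0.73) and 0.24 (0.07 to 0.42), under 2-fold. Of 8 inhibitory receptors 2 were higher, Pdcd1 at 1.33 (0.82 to 1.92) and Havcr2 at 1.01 (0.33 to 1.85). For cell cycle genes 0 of 29 were higher and 1 was lower, and for T cell receptor signalling 0 of 17 differed by 2-fold, beside 3.01% higher and 7.14% lower over all measured genes, so these counts are near the background.

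Lower in the members than in CD8-negative tumour T cells were 7 of 10 measured naive and recirculation genes and 8 of 24 transcription factors. The share over all measured genes was 7.14%. S1pr1 was at 7.59 against 121 CPM, a log2 ratio of -3.92 (-5.42 to -2.80), and Tcf7 at 22.8 against 118, a log2 ratio of -2.36 (-3.24 to -1.53). Maf and Rora, factors of helper T cell subsets, had log2 ratios of -2.37 (-2.85 to -1.91) and -2.02 (-2.40 to -1.65), and the costimulator OX40 (Tnfrsf4) had -1.76 (-2.31 to -1.21). Cd4 itself was at 5.42 against 301 CPM, and Cd40lg, by which helper cells activate B cells, at 0 UMIs against 47.8 CPM. By the same ranking as above, with 8 genes each way, the higher genes were Prf1, Trgc2, Spry2, Klrc2, Gzmb, Setbp1, Ntan1 and Klre1 and the lower ones Cd4, S1pr1, Ramp3, Maf, Tcf7, Klhdc2, Rora and Slamf6. Spry2, an inhibitor of receptor kinase signalling, was at 73.7 against 7.35 CPM.

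Some granzymes sat in few of the members. Nkg7, Il2rb, Ccl5 and Cxcr6 had a UMI in 279, 267, 266 and 264 of 318 cells, and their 10 richest cells held 12.5%, 15.2%, 14.4% and 10.9% of the UMIs. Gzmb and Ccl4 were less even, with 40.6% and 38.9% in 10 cells. Gzma was seen in 20 cells only, 10 of which held 95.7% of its UMIs, and Gzmf in 31, with 88.7%. Gzmk, at a lower level, was spread over 61 cells, with 33.0% in 10 of them. Few cells also held some genes that are no granzymes, such as Ccl9 and Ccr7, with 100% of the UMIs in 10 cells each. Gzma and Prf1, at 350.2 and 386 CPM, were thus of like level but sat in 20 and 144 cells.

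**Figure D4:**
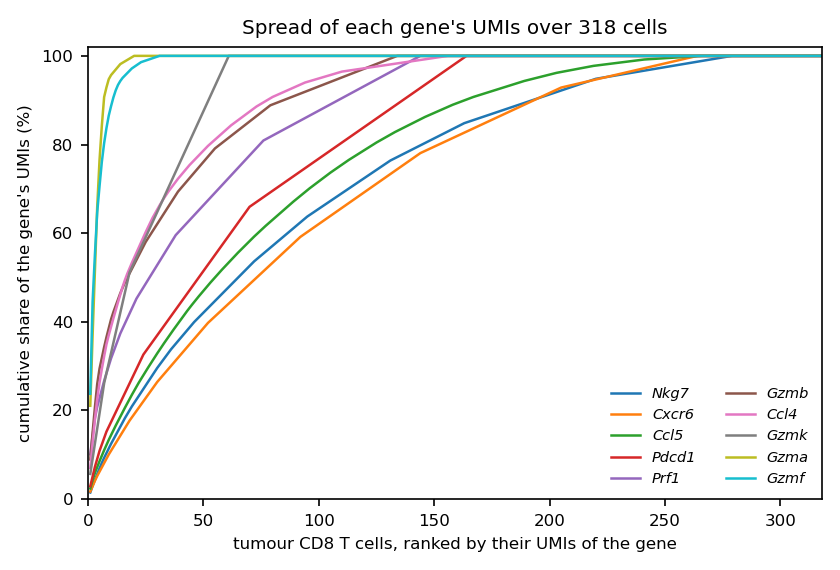
Cumulative share of a gene's UMIs (vertical axis, %) over the 318 tumour CD8 T cells ranked from the cell with the most UMIs of that gene (horizontal axis, number of cells), for 10 genes. Gzma and Gzmf reach 100% within 20 and 31 cells, while Nkg7 needs 279.

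Gzmc to Gzmg together had at least 1 UMI in 39 members (12.3%, 95% interval 8.87% to 16.4%) and 0 in 279. Of the 39, 19 held 1 to 4 UMIs and 20 held 5 or more, and 16 of these 20 had at least 3 of the 5 genes. The highest cell held 264, and 5 cells with 50 or more held 74.0% of the 1124 UMIs. The thinned share with a Gzmf UMI was 8.13% of members and 0.0192% of keratin-high cells, which should lack the gene but were deeper before thinning.

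The 39 cells differed from the other 279 in genes that did not define them. This split was chosen after the values were seen, the median depth was 2935 against 1950 UMIs, and the median ratio of measured genes was -0.06 on the log2 scale. Gzmb was at 1547 CPM against 294 (log2 ratio 2.40, 95% interval 2.13 to 2.66), with thinned shares of 65% and 22.1%, and Prf1 at 790.3 against 289.8 (log2 ratio 1.45, interval 1.13 to 1.76). Tnfrsf9 and Havcr2 were higher too, with log2 ratios of 1.38 (1.07 to 1.67) and 1.03 (0.45 to 1.58), and so were Irf8, a transcription factor, at 2.06 (1.76 to 2.37) and Bnip3, a mitophagy receptor induced by low oxygen, at 2.61 (1.61 to 3.68). The glycolysis and hypoxia list summed to 6520.01 CPM against 4728 and the cell cycle list to 5797 against 5736.

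The same 39 cells held less RNA of Ccl3, Ccl4 and Ccl5. Ccl4 was at 457 against 1629 CPM (log2 ratio -1.82, interval -2.18 to -1.51) and Ccl5 at 1417 against 3761 (-1.41, -1.60 to -1.22), with Ccl3 at -1.37 (-1.93 to -0.89). The chemokine Xcl1 was higher, at 181 against 29.5 CPM (2.60, 1.79 to 3.47), in 3 of the 39 cells. That ratio rested largely on 1 of these cells, which held 22 of the 54 Xcl1 UMIs of all members. Tox at -1.54 (-2.78 to -0.64), Gzmk at -1.59 (-3.19 to -0.52) and Cxcr6 at -0.91 (-1.25 to -0.61) were lower as well. The intervals for Pdcd1, Lag3 and Nkg7 held 0. Macrophage markers summed to 56.5 CPM in the 39 cells and 454 in the others, dendritic cell markers to 45.2 and 399.8, erythroid markers to 11.3 and 2718, and Fth1 and Psap, which macrophages also hold, were lower at -1.99 and -1.89. Whether these other-lineage UMIs carried part of the Ccl4 difference was not tested. Dividing cells and cells with these granzymes overlapped in 7.

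**Figure D5:**
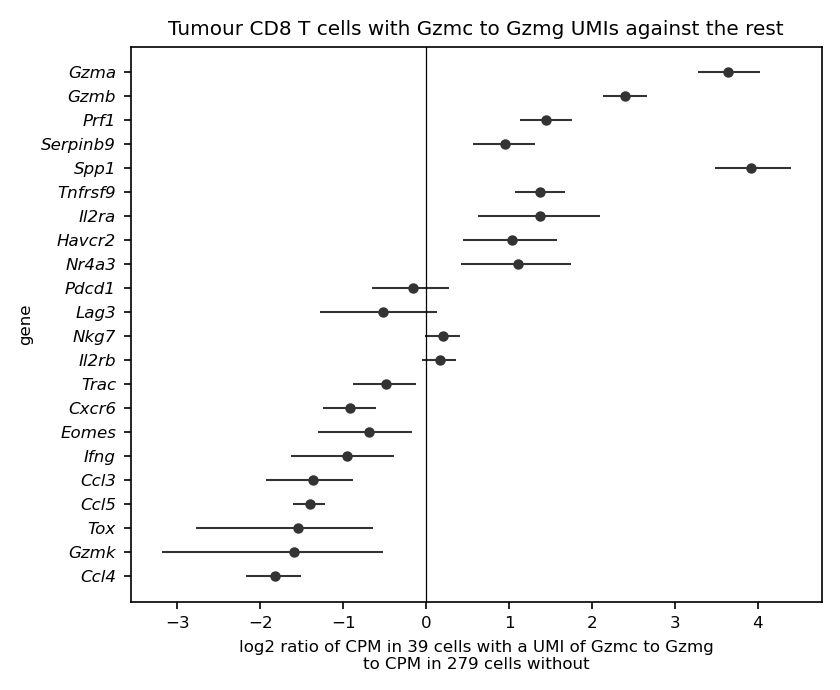
Log2 ratio of CPM (horizontal axis) of 22 genes between the 39 tumour CD8 T cells with a UMI of Gzmc to Gzmg and the 279 without, with exact 95% counting intervals. The line marks 0; Gzma, Gzmb and Prf1 lie above it and Ccl4, Gzmk, Tox and Ccl5 below it.

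Depth ran with several levels over the members. In 3 groups of 106 cells from the shallowest to the deepest, with median depths of 1270.5, 2095.5 and 4206 UMIs, the cell cycle list went from 1787 through 3197 to 7692 CPM. The cytokine and chemokine list went the other way, from 10213 through 7601 to 4801, and the inhibitory receptor list from 1491 through 1424 to 921. The cytotoxic list was at 4875, 4905 and 6874. The part of depth in these levels was not tested.

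Some members held RNA of the T cell receptor gamma locus. Trgc2, a constant gene of the gamma chain, had 97 UMIs in 70 members (22%). Its level was 105 CPM in members, 2.02 in lymph node CD8 T cells and 11 in CD8-negative tumour T cells. Of these cells 63 also held Trbc1 or Trbc2, 52 Trac and 54 Cd8b1, and Trdc was at 0 in all members. Trgv2, a variable gene, was seen in 25 members, 15 of which held Trgc2. Cells with and without Trgc2, a split chosen after the values were seen, had similar depth (medians 2340.5 and 2005.5 UMIs) and sums of the cytotoxic list of 6063 and 6121 CPM. Cells with Trgc2 held less of the naive and recirculation list, with a log2 ratio of -0.71 (-1.04 to -0.41), and of the interferon response list, with -0.50 (-0.65 to -0.36), and more of the cell cycle list, with 0.35 (0.27 to 0.44). Erythroid markers summed to 22.1 CPM in them and 2905 in the others, and fibroblast and endothelial markers to 39.8 and 192. Dendritic cell markers summed to 252 and 358, and neutrophil markers to 92.9 and 40.2. The intervals for macrophage, cancer cell and B cell markers held 0. The part of other-lineage UMIs in these ratios was not tested. Most cells with gamma chain RNA thus also carried constant genes of the alpha or beta chain, and 3′ counts do not show whether the gamma locus was productively rearranged.

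Variable genes of the beta chain were caught in few cells, since 3′ libraries seldom reach them. Of 318 members 16 had a Trbv UMI, from 4 genes, with Trbv2 in 9, Trbv19 in 4, Trbv12-2 in 2 and Trbv3 in 1. In the lymph node 163 of 1531 CD8 T cells had one, from 20 genes, of which Trbv12-2 (23 cells) was the most frequent. Trbv2 was 56.3% of the assigned members (95% interval 29.9% to 80.2%) and 4.38% of the assigned lymph node CD8 T cells (7 cells, 1.78% to 8.81%). The intervals were apart, but cells of 6 mice were pooled, so cells of 1 clone or 1 mouse cannot be told apart from independent ones. Trav genes were seen in 11 members, from 8 genes.

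Cxcr6, in most of the members, was also found in 63 of the lymph node CD8 T cells (4.11%, 95% interval 3.18% to 5.23%). These 63 cells were chosen after values were seen. Their median depth was 4940 UMIs, against 4042.5 in the other lymph node CD8 T cells. They lie beside the members as follows. Pdcd1 was at 94.7 CPM in them, 8.10 in other lymph node CD8 T cells and 299 in members, Gzmb at 97.3, 8.24 and 534, and Ccl5 at 4159, 742 and 3311. Ccr7 was at 642 CPM in them against 652 in the other lymph node CD8 T cells and 59.6 in members, and Tcf7 at 182 against 166 and 22.8, while S1pr1 was at 141 against 286 and 7.59, Lef1 at 230.4 against 364 and 28.2, and Klf2 at 402 against 579 and 75.9. Itga1 was at 0 UMIs in them, which allows up to 7.68 CPM, and at 105 CPM in members. The B cell marker Igkc was at 486 CPM in them, 2431 in the other lymph node CD8 T cells and 15.2 in members. The part of B cell UMIs in these values was not tested. All values here are sums over the 63 cells and do not show which genes shared a cell.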

How the data were processed

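The authors deposited raw UMI counts per gene and cell for 1 tumour and 1 lymph node library (10x Genomics 3′ chemistry, GRCm38). The file headers name cellranger 5.0.0 and the submitters' notes Cell Ranger 2.1.1. The deposited counts are read in this report without further normalization by the authors. Counts were summed over the cells of a group and divided by the group's total, ratios had 0.5 counts added to each sum, and intervals were exact Poisson, binomial or conditional ones. The steps were tested on simulated data. Groups came from the limits given, which are also those of the study for genes and mitochondrial share, apart from its upper limit on genes. Members, gene lists and limits were chosen with earlier results of these data known.

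Genes were named from the lists and by ranking the ratio (12 each way against the lymph node, 8 each way against CD8-negative T cells, 8 each way within members), without genes of the limits and variable segments, with a UMI in at least 10% of cells of the higher group (25% within members) and at most 20% of UMIs in a cell. Genes higher in members also had to reach the CPM of keratin-high and C1q cells, and genes higher in the lymph node that of its B cells. The 10 most abundant genes and the variable genes seen were added. A few genes of the lists and ranking are not reported here but stay in the counts. Doublets were scored with Scrublet in scanpy 1.11.5 and left in. Python 3.11.15, numpy 2.4.6, scipy 1.17.1 and pandas 2.3.3 were used. Gene positions and coding ends came from GENCODE vM21 by gene ID, and 342 of 342 IDs matched.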

Additional observations from a re-analysis of the deposited data

How the results depend on the processing

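With 1 library a group, the limit on all results is that mice and libraries were not replicated. No paired analysis was possible because each group has only 1 sample. The members numbered 318, and 442 with a mitochondrial limit of 10%, 253 with at least 2 UMIs of Cd8a and Cd8b1 and 238 with 1000 to 4000 UMIs, by construction of these limits. Against lymph node CD8 T cells, 1329 genes were higher and 329 lower. Without the filter on low values these were 5135 and 1152, since more genes were counted. Centred on the median gene they were 765 and 656, and 676 were lower with ribosomal and mitochondrial genes left out of the totals. Against CD8-negative tumour T cells, 186 were higher and 441 lower. These were 361 and 840 without cells with a UMI of Cd4, Trdc, Ncr1, Cd79a or Ms4a1 or over 2 of Lyz2, which takes out the CD8-negative cells with Cd4, 300 and 842 among cells of 1000 to 4000 UMIs, and 1051 and 2091 without the filter. In the same comparison 293 were higher by the mean of single-cell CPM and 285 with ribosomal and mitochondrial genes left out, and the cause of these last 2 shifts was not tested. The 16 higher cytotoxic genes were 16 under every alternative, and the inhibitory receptor, naive and cell cycle counts stayed within 1.5 times of theirs. Ratios of single genes at 2-fold or more were counted once for each of 13 alternatives, 2 of which were chosen after seeing the data. Of these 1729 values 1682 stayed at 2-fold or more, and the other 47 came from 15 of the gene comparisons. The genes came from the lists or were ranked by ratio, so they do not stand for all genes. Tyrobp reversed to -0.31 without the cells left out by the same genes and Xcl1 to -0.26 among cells of 1000 to 4000 UMIs, and the cause was not tested.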
